A study of Mus musculus with 8 samples.

Results

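Cdk6, Rb1, Arid4b and the D-type cyclin genes Ccnd1, Ccnd2 and Ccnd3 were examined in a DNA-RNA immunoprecipitation (DRIP-seq) data set of mouse muscle stem cells (MuSCs). All rows of the table of S9.6 peaks that carried one of these 6 symbols first in their gene column were taken, which gave 34 of 28265 peaks. Cdk6 had 14 of them, Arid4b 12, Rb1 4, Ccnd2 2 and Ccnd3 2. Ccnd1 had 0, so no level can be given for it. RNA:DNA hybrids are recognized by the S9.6 antibody, and each peak carried a score, the S9.6 signal over the peak after scaling by the reads of Drosophila cell DNA added as a spike-in.

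Ctrl MuSCs (Pax7CreERT/Suv4-20h1WT) were compared with Kmt5b sKO MuSCs (Pax7CreERT/Suv4-20h1KO), 3 S9.6 libraries of each. Suv4-20h1 is another name of Kmt5b, whose protein dimethylates lysine 20 of histone H4. Both genotypes carried the tamoxifen-inducible Cre expressed from Pax7, a gene of satellite cells, so recombination depended on Pax7 expression in these cells. The cells were purified from limb and trunk muscle with magnetic beads. The paper reports that mice were given tamoxifen and that purified MuSCs were grown in culture. It describes the MuSCs mapped by DRIP-seq as proliferating. Each genotype also had 1 input library, whose values were not used here.

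D-type cyclins bind and activate the kinases CDK4 and CDK6 in G1 phase. The active kinases phosphorylate the retinoblastoma protein, encoded by Rb1, which then releases E2F transcription factors, and genes needed for DNA replication are transcribed. ARID4B binds the retinoblastoma protein and is a subunit of the SIN3 histone deacetylase complex, a repressor of transcription. R-loops are RNA:DNA hybrids with a single displaced DNA strand. They form mostly within transcribed genes, and runs of G on the coding strand, the displaced one, favor them.

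The 3 genes with the most peaks were long. In the GENCODE annotation of mm10, Cdk6 (ENSMUSG00000040274) lay at chr5:3341485-3531008 on the plus strand, and peaks covered 31.6% of its 189.5 kb. Rb1 (ENSMUSG00000022105) lay at chr14:73183673-73325822 on the minus strand, with 25.3% of 142.2 kb in its peaks, and Arid4b (ENSMUSG00000039219) at chr13:14063232-14199603 on the plus strand, with 29.9% of 136.4 kb. The cyclin genes were shorter. Ccnd2 (ENSMUSG00000000184, chr6:127125162-127152193, minus strand, 27.0 kb) had 6.06% of its length in peaks, and Ccnd3 (ENSMUSG00000034165, chr17:47505051-47599691, plus strand, 94.6 kb) had 6.44%. Ccnd1 (ENSMUSG00000070348, chr7:144929931-144939925, minus strand) had its nearest peak 381.1 kb away.

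No peak of these genes covered the transcription start site (TSS) of its gene. The nearest edge lay 2.17 kb from the TSS in Arid4b, 3.12 kb in Cdk6, 7.82 kb in Rb1, 22.8 kb in Ccnd2 and 74.5 kb in Ccnd3. Of the 34 peaks, 21 lay wholly in introns and 13 overlapped an exon. Cdk6 peaks were mostly intronic (12 of 14), whereas 7 of the 12 Arid4b peaks overlapped an exon. Both Ccnd2 peaks lay at the 3′ end of the gene, over its 3′ UTR.

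The bases of 6 of these peaks are shown by 1 window of 200 bases each, the window with the most bases in runs of 3 or more G on the coding strand. They are printed 5′ to 3′ on that strand from mm10 (GRCm38), with runs of G in capitals, and all 6 windows are intronic. Coordinates of peaks and windows are given as in the deposited table, which counts bases from 0. The Cdk6 windows came from chr5:3344600-3344799 in the peak nearest to the TSS, chr5:3366200-3366399 in the peak with the smallest adjusted p, and chr5:3512800-3512999 in the peak with the largest fold change. The Rb1 windows came from chr14:73254400-73254599 in the peak that was called higher and chr14:73309800-73309999 in the longest peak, which was not called. The Arid4b window came from chr13:14173800-14173999 in the peak with the largest fold change.
Cdk6, nearest to the TSS: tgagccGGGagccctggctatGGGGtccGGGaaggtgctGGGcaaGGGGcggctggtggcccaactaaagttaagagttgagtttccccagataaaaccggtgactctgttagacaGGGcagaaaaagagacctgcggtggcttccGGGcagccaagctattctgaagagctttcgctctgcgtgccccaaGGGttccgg
Cdk6, smallest adjusted p: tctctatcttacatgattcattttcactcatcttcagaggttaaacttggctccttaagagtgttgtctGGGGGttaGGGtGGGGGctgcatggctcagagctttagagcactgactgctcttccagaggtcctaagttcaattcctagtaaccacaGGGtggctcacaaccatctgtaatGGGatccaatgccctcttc
Cdk6, largest fold change: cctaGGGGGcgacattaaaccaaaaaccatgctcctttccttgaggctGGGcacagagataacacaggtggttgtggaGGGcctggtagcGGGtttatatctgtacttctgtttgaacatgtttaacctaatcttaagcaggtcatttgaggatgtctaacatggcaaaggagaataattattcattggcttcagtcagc
Rb1, called higher: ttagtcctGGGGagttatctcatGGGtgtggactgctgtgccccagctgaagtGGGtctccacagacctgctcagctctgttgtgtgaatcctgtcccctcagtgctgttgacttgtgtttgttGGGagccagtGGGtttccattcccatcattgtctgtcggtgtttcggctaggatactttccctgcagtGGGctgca
Rb1, longest peak: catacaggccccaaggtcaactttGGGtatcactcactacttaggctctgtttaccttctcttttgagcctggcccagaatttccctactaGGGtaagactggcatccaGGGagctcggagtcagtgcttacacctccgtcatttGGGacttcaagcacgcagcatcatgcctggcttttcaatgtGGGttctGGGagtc
Arid4b, largest fold change: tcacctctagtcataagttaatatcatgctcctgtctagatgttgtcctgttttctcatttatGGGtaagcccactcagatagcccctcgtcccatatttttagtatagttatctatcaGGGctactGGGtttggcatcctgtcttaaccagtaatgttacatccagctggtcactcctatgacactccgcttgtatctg

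The Cdk6 window nearest to the TSS held 8 runs of G and the Arid4b window 3. The letters searched were GGG on the coding strand, extended to the whole run. Over all bins of 200 bases in the peaks of these genes, 614 of 755 (81.3%) held such a run, and over all tested peaks with an annotated gene 83.9% did. At least 4 runs were found in 16.8% of the bins of these genes and in 22.7% of all bins. The tested peaks of these genes had a median GC content of 40.5%, against 42.4% over all tested peaks, and a median GC skew on the coding strand of 0.047, which was also the median of all tested peaks. These are descriptions of the sequences, not sites of R-loops.

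Over the whole table the summed score ranged from 3893768 to 4729631 in Ctrl and from 4699599 to 4930261 in Kmt5b sKO libraries, with Ctrl 2 the highest of the Ctrl libraries. Of the 25815 peaks tested, 32.9% were called higher and 0.883% lower in Kmt5b sKO, and the median log2 fold change was 0.35. The 1 peak of the targeted gene, at chr19:3805200-3815599, had scores of 412, 658 and 420 in Ctrl and 440, 449 and 484 in Kmt5b sKO. This signal is not a check of the deletion, since S9.6 measures hybrids. Of 8 muscle stem cell and myoblast marker genes, 5 had a peak (Myf5, Cdh15 and Vcam1 had none), and of 10 markers of endothelium, blood, fibro-adipogenic cells and glia 1 had a peak (Pecam1, a gene of endothelium). Of the 12 tested peaks of the muscle markers 0 were called by limma (0 higher and 1 lower at an unadjusted p below 0.05), and of the 3 of Pecam1 1 was called higher, with 53, 46 and 60 in Ctrl and 93, 72 and 112 in Kmt5b sKO. Its part in the other results was not tested.

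S9.6 signal was higher in Kmt5b sKO in most Cdk6 peaks, while the calls in the other genes were mostly in short peaks. Of the 33 peaks tested, 17 were called higher (limma, adjusted p below 0.1 and fold change over 1.5), or 51.5%, and 0 were called lower, beside 32.9% and 0.883% over all peaks. At an unadjusted p below 0.05 in limma, 21 were higher and 0 lower. The 17 were 10 of 14 in Cdk6, 3 of 11 in Arid4b, 1 of 4 in Rb1, both of Ccnd2 and 1 of 2 in Ccnd3. Outside Cdk6, 6 of the 7 called peaks were at most 1600 bp long. Such short peaks were often called higher over the whole table, with 67.8% of those of 200 to 1200 bp and 47.5% of those of 1400 to 2000 bp. The median log2 fold change was 0.67, beside 0.35 over all tested peaks, whose quartiles were 0.05 and 0.76. A fold change here is Kmt5b sKO over Ctrl on the log2(score + 1) scale.

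All 3 Kmt5b sKO libraries lay above all 3 Ctrl libraries in 22 of the 33 peaks, and below them in 0, where 41.5% and 3.81% of all tested peaks did so. The fold change was above 0 in 28 of 33 peaks, beside 78.7% of all tested peaks. The peak not tested, in Arid4b at chr13:14181800-14182399, had a mean score of 19.5, under the minimum of 30. Of the 33 peaks tested, 3 had a Ctrl mean at or under 30 and passed that minimum through their Kmt5b sKO values. They were the Cdk6 and Arid4b peaks with the largest fold changes and the Ccnd2 peak at chr6:127128400-127129399, so they could only differ upwards and support no count by themselves. Rb1, Cdk6 and Arid4b were also on a list of cancer genes that the study chose on these libraries, so their direction is not independent evidence.

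Cdk6, the kinase gene, had 10 of its 14 peaks called higher in Kmt5b sKO (71.4%, beside 32.9% of all tested peaks). All 14 peaks had a positive fold change, from 0.47 to 1.56 with a median of 0.68, and in all 14 the 2 genotypes did not overlap. Over all tested peaks, 41.5% had every Kmt5b sKO library above every Ctrl library. Among the 326 genes with at least 10 tested peaks, 39 (11.96%) had every peak positive, and Cdk6 ranked 10th by its median fold change. The scores summed over the Cdk6 peaks were 1617, 1608 and 1563 in Ctrl and 2454, 2684 and 2700 in Kmt5b sKO. Per kb of peak, Ctrl had 26.7 ± 0.48 (SD, n = 3) and Kmt5b sKO had 43.7 ± 2.30 (SD, n = 3), and the Ctrl libraries were the closest to each other of any of these genes.

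The Cdk6 peak nearest to the TSS, chr5:3344600-3349599 in an intron, scored 110, 140 and 125 in Ctrl and 220, 219 and 224 in Kmt5b sKO. Every Kmt5b sKO library was above every Ctrl library, and the log2 fold change was 0.82 (SE 0.17, adjusted p = 3.91e-05 in limma). The longest Cdk6 peak, 12 kb at chr5:3351000-3362999, scored 353, 366 and 348 in Ctrl and 520, 579 and 607 in Kmt5b sKO. It rose by a log2 fold change of 0.67 (SE 0.14, adjusted p = 5.23e-05 in limma), with no overlap between the genotypes. Its fold change was under the minimum for a call with quantile normalization (0.57) and with the same total per library (0.47).

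The peak with the smallest adjusted p, chr5:3363800-3371399, scored 194, 207 and 194 in Ctrl and 318, 399 and 338 in Kmt5b sKO, a log2 fold change of 0.82 (SE 0.16, adjusted p = 6e-06 in limma). The largest fold change was that of a short peak toward the 3′ end, chr5:3512400-3513399, with 11, 12 and 24 in Ctrl and 50, 69 and 27 in Kmt5b sKO (log2 fold change 1.56, SE 0.46, adjusted p = 0.00392 in limma). Its Kmt5b sKO libraries were far apart, with the lowest at 27 beside a highest Ctrl value of 24. The call ended with the variance of this peak alone (adjusted p = 0.121 in limma), and without sKO 1 or sKO 2 the peak was under the minimum score and was not tested. The smallest fold change, 0.47 at chr5:3467400-3471199 (SE 0.19, adjusted p = 0.0365 in limma), came from 115, 96 and 102 in Ctrl and 145, 143 and 145 in Kmt5b sKO. It did not reach the fold change minimum and was not called.

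**Figure D1:**
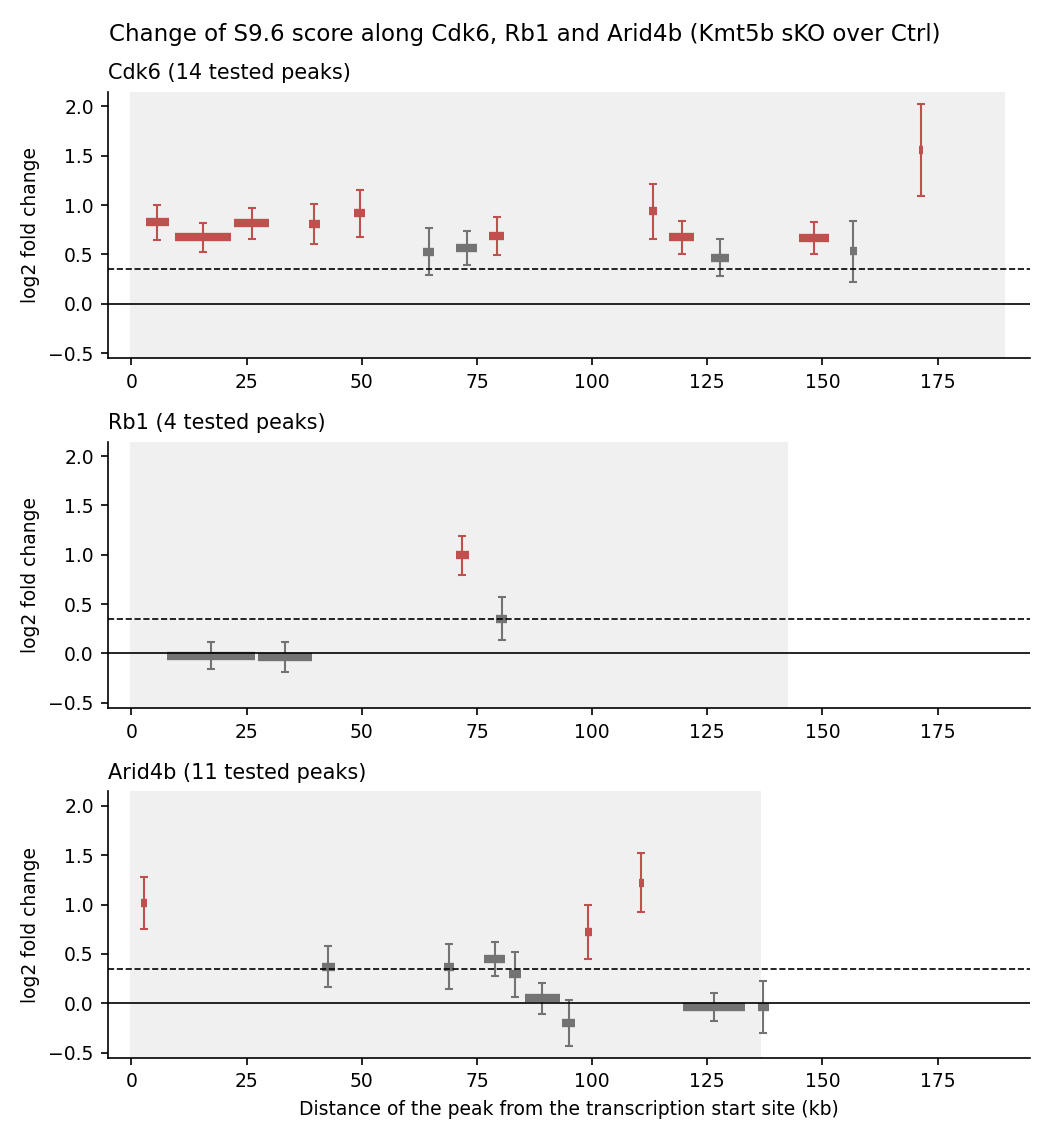
Log2 fold change of S9.6 score (y axis, Kmt5b sKO over Ctrl, 3 libraries each) of each tested peak along Cdk6, Rb1 and Arid4b, by distance from the TSS in kb (x axis). Horizontal bars span the peak, vertical bars are ± 1 SE, red peaks were called higher, grey shading is the gene and the dashed line is the median of all tested peaks (0.35). All 14 Cdk6 peaks lie above the dashed line, while the long peaks of Rb1 and Arid4b lie at about 0.

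Of the D-type cyclin genes, Ccnd2 and Ccnd3 had 2 peaks each. The Ccnd2 peak at chr6:127128400-127129399, wholly in the 3′ UTR, scored 37, 21 and 25 in Ctrl and 48, 53 and 85 in Kmt5b sKO. It was called higher, with a log2 fold change of 1.13 (SE 0.32, adjusted p = 0.00244 in limma). This call ended with quantile normalization (log2 fold change 0.50, adjusted p = 0.251 in limma). It also ended with the variance of the peak alone (adjusted p = 0.107 in limma). The peak across the 3′ end of the gene, chr6:127124400-127125799, scored 39, 30 and 25 in Ctrl and 44, 46 and 69 in Kmt5b sKO (log2 fold change 0.73, SE 0.32, adjusted p = 0.0576 in limma). In both peaks the Kmt5b sKO libraries lay above the Ctrl libraries, and sKO 3 was the highest. Without sKO 3 the fold change of the second peak was 0.53 (adjusted p = 0.282 in limma), and without Ctrl 3 it was 0.59 (adjusted p = 0.241 in limma), so that call ended in both cases. With the variance of the second peak alone its call ended too (adjusted p = 0.146 in limma). This peak also overlapped the antisense gene Gm43126, and the scores carry no strand.

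In Ccnd3, a peak of 1.2 kb in an intron, chr17:47579600-47580799, scored 36, 28 and 40 in Ctrl and 49, 67 and 53 in Kmt5b sKO, and was called higher (log2 fold change 0.69, SE 0.30, adjusted p = 0.0571 in limma). The call ended without Ctrl 2 (0.55, adjusted p = 0.155 in limma) and without sKO 2 (0.56, adjusted p = 0.209 in limma). It also ended with quantile normalization (0.059, adjusted p = 0.907 in limma) and with the same total per library (0.49, adjusted p = 0.218 in limma). Centring the libraries on their median peak ended it too (0.23). The longer peak, chr17:47594800-47604199, ran past the 3′ end of Ccnd3 over the neighboring gene Bysl. It scored 537, 653 and 521 in Ctrl and 617, 684 and 674 in Kmt5b sKO, the genotypes overlapped, and it was not called (log2 fold change 0.21, adjusted p = 0.223 in limma). Its direction turned when the libraries were centred on their median peak (−0.25).

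Rb1, the gene of the protein that the cyclin D kinases phosphorylate, had 1 called peak of 4. This intronic peak, chr14:73252600-73255399 at about the middle of the gene, scored 73, 68 and 67 in Ctrl and 127, 139 and 152 in Kmt5b sKO. The genotypes were well apart, with a log2 fold change of 0.99 (SE 0.20, adjusted p = 1.96e-05 in limma). The neighboring peak at chr14:73244200-73246599 scored 59, 85 and 60 in Ctrl and 98, 77 and 84 in Kmt5b sKO. There the libraries overlapped and the fold change of 0.35 was not called (adjusted p = 0.201 in limma).

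The other 2 Rb1 peaks were long and lay toward the TSS. The longest of all the 34, 19 kb at chr14:73299000-73317999, scored 557, 851 and 628 in Ctrl and 685, 639 and 651 in Kmt5b sKO (log2 fold change −0.02, SE 0.14, adjusted p = 0.923 in limma). The peak of 11.8 kb at chr14:73286600-73298399 scored 272, 444 and 308 in Ctrl and 368, 273 and 343 in Kmt5b sKO (log2 fold change −0.04, SE 0.15, adjusted p = 0.873 in limma). Ctrl 2 was the highest library in both. Without it their fold changes were 0.15 and 0.17, with adjusted p of 0.184 and 0.271, and neither peak was called.

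**Figure D2:**
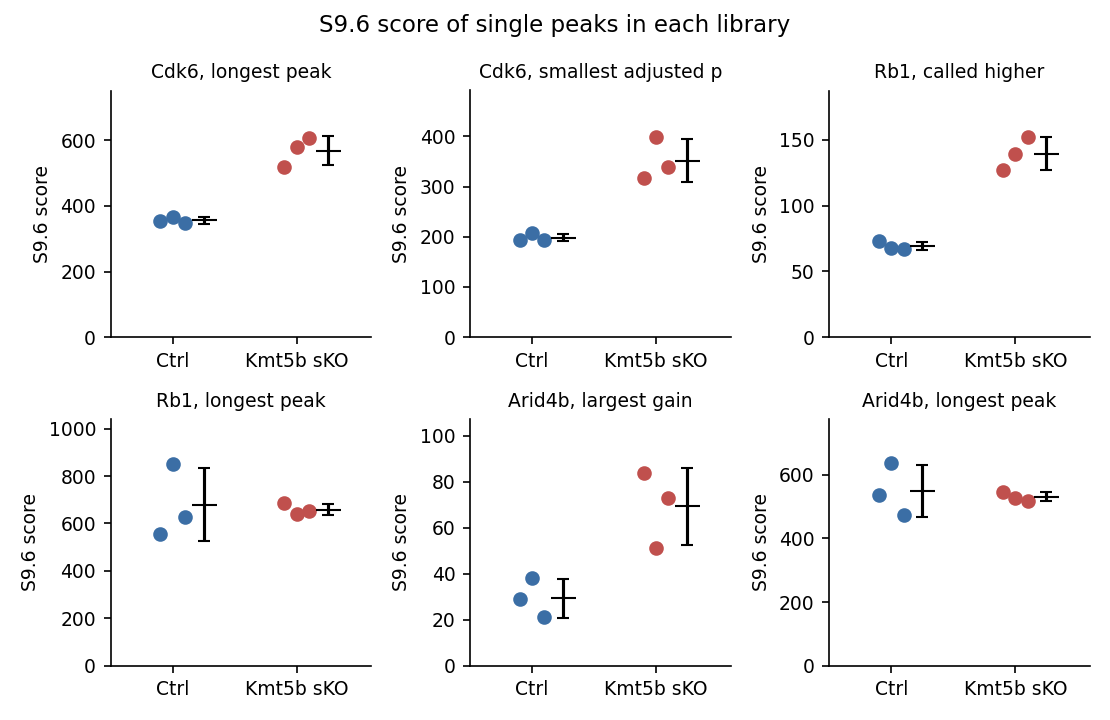
S9.6 score (y axis, from 0) of 6 single peaks in the 3 Ctrl (blue) and 3 Kmt5b sKO (red) libraries, in the order of replicates 1 to 3, with mean ± SD beside the points. The genotypes are apart in the upper row and in the short Arid4b peak, while in the longest peaks of Rb1 and Arid4b they overlap and Ctrl 2 is the highest library.

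Arid4b, the gene of the SIN3 subunit that binds the retinoblastoma protein, had 3 called peaks of 11 tested, all intronic and of 1.0 to 1.6 kb. That share, 27.3%, was below the 32.9% of all tested peaks. The peak nearest to the TSS, chr13:14065400-14066599, scored 42, 38 and 34 in Ctrl and 75, 88 and 71 in Kmt5b sKO, without overlap (log2 fold change 1.02, SE 0.26, adjusted p = 0.000786 in limma). This call ended with quantile normalization (0.47, adjusted p = 0.179 in limma) and when the libraries were centred on their median peak (0.56). The largest fold change was 1.22 (SE 0.30, adjusted p = 0.000426 in limma) at chr13:14173400-14174399, with 29, 38 and 21 in Ctrl and 84, 51 and 73 in Kmt5b sKO. This peak also lay in the sense intronic gene Gm48027.

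The longest Arid4b peak, 13.4 kb at chr13:14183000-14196399 over 4 exons near the 3′ end, scored 537, 638 and 474 in Ctrl and 546, 528 and 518 in Kmt5b sKO. The Kmt5b sKO values lay within the Ctrl range (log2 fold change −0.04, adjusted p = 0.850 in limma), and without Ctrl 2 the fold change was 0.07. The smallest fold change was −0.20 (adjusted p = 0.516 in limma) at chr13:14156800-14159599, with 68, 90 and 68 in Ctrl and 62, 77 and 57 in Kmt5b sKO. Over all tested Arid4b peaks the median was 0.37, close to the 0.35 of all peaks. Of the 11 peaks, 4 had no overlap between the genotypes, all with Kmt5b sKO above Ctrl, beside 41.5% of all tested peaks in that direction.

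The scores of each gene were summed and divided by the length of its peaks, a level per kb. In Ctrl the means were 57.1 ± 6.23 per kb in Ccnd3, 32.5 ± 4.54 in Arid4b, 32.1 ± 7.13 in Rb1, 26.7 ± 0.48 in Cdk6 and 24.6 ± 6.14 in Ccnd2 (SD, n = 3). The Ccnd3 libraries lay above those of all other genes, and among the other 4 the libraries of neighbors in this order overlapped. In Kmt5b sKO they were 67.4 ± 4.13 in Ccnd3, 47.9 ± 14.1 in Ccnd2, 43.7 ± 2.30 in Cdk6, 36.7 ± 1.21 in Arid4b and 33.7 ± 2.13 in Rb1 (SD, n = 3). There the libraries of neighbors overlapped except those of Cdk6, which lay above those of Arid4b. In sum over the peaks, the ratio of means was 1.95 in Ccnd2, 1.64 in Cdk6, 1.18 in Ccnd3, 1.13 in Arid4b and 1.05 in Rb1. The Ccnd2 ratio came from 2 low peaks, with sums of 76, 51 and 50 in Ctrl and 92, 99 and 154 in Kmt5b sKO. Of these, the peak at chr6:127128400-127129399 had passed the minimum score through Kmt5b sKO and could only differ upwards, so the place of Ccnd2 in this order is not secure. The summed scores of Rb1, of Arid4b and of Ccnd3 overlapped between the genotypes. Most of the Ccnd3 score came from the peak that also ran over Bysl (a mean of 570 of 605 in Ctrl), and the scores carry no strand. Of the 10.6 kb of Ccnd3 peaks, 6.09 kb lay inside the gene. The level given for Ccnd3 is therefore not that of Ccnd3 alone.

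**Figure D3:**
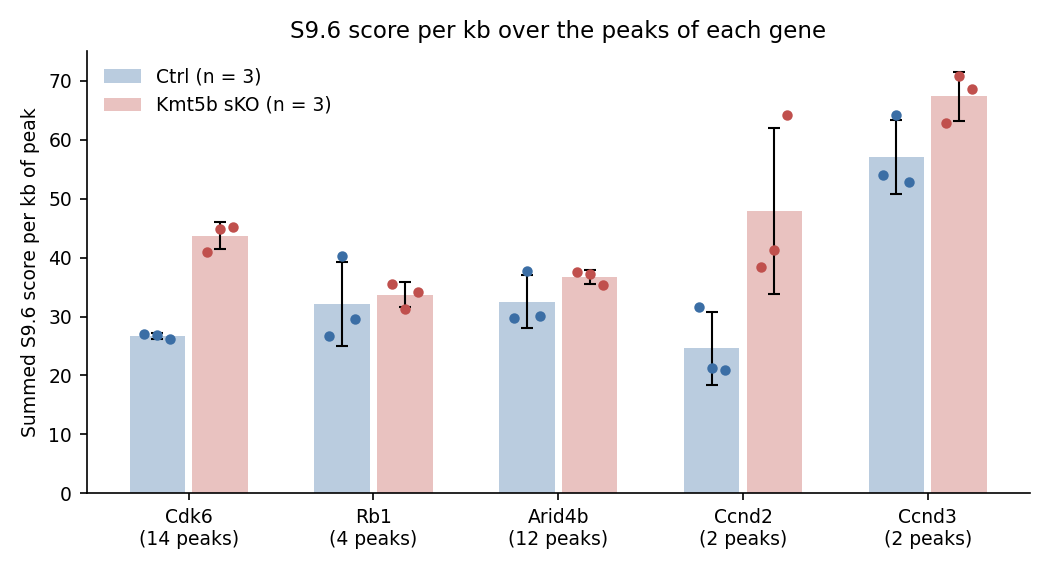
S9.6 score summed over the peaks of each gene per kb of peak (y axis, from 0) in Ctrl (blue) and Kmt5b sKO (red), with bars at the mean, error bars of 1 SD and a point for each of 3 libraries. The Cdk6 libraries of the 2 genotypes do not overlap, and the Rb1 libraries overlap. The Ccnd3 bars include the peak that also runs over Bysl.

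Ratios between genes within a library do not depend on the spike-in scaling. The Cdk6 score was 1.68, 1.11 and 1.47 times the Rb1 score in Ctrl and 1.92, 2.38 and 2.20 times in Kmt5b sKO. Against Arid4b it was 1.27, 0.995 and 1.22 times in Ctrl and 1.53, 1.69 and 1.79 times in Kmt5b sKO. In both ratios the 3 Kmt5b sKO libraries lay above the 3 Ctrl libraries. The ratio of Rb1 to Arid4b was 0.754, 0.896 and 0.827 in Ctrl and 0.796, 0.709 and 0.815 in Kmt5b sKO, and overlapped. Cdk6 held 0.0414%, 0.0340% and 0.0401% of the summed score of the Ctrl libraries and 0.0522%, 0.0544% and 0.0565% of that of the Kmt5b sKO libraries. These ratios were picked with the values in view and have no test.

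Short peaks were called higher more often than long ones over the whole table, so the calls were set beside those of peaks of like length. In peaks of 200 to 1200 bp, 5 of 5 peaks of these genes were called higher, beside 67.8% of all, but 3 of the 5 were the peaks that had passed the minimum score through Kmt5b sKO. In peaks of 1400 to 2000 bp it was 3 of 4, beside 47.5%, and in peaks of 2200 to 3000 bp 3 of 10, beside 26.2%. In peaks of 3200 to 5800 bp it was 3 of 6, beside 12.8%, and in peaks of 6000 bp and more 3 of 8, beside 4.27%. All 6 calls in the last pair of classes were Cdk6 peaks (3 of 5 and 3 of 3), while 0 of the 5 peaks of 6000 bp and more in Rb1, Arid4b and Ccnd3 were called. Across peaks, which are not independent replicates, the Spearman correlation of length with fold change was −0.57 over all tested peaks, −0.56 over these genes, −0.68 in Arid4b (11 peaks) and −0.23 in Cdk6 (14 peaks).

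**Figure D4:**
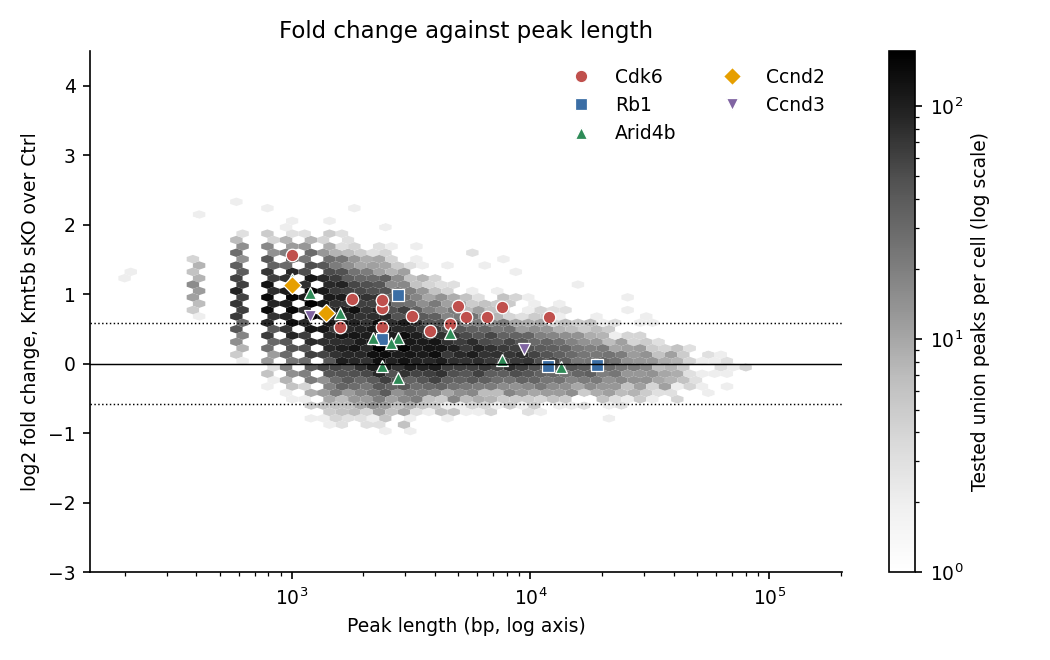
Log2 fold change of S9.6 score (y axis, Kmt5b sKO over Ctrl) against peak length in bp (x axis, log scale), with all tested peaks in grey (darker cells hold more peaks, log scale), the peaks of the 5 genes as symbols and dotted lines at a fold change of 1.5 either way. The long Cdk6 peaks (red circles) lie above the bulk of the peaks of their length, and the long Rb1, Arid4b and Ccnd3 peaks lie within it.

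Counts of calls depended on the common scale of the libraries. When each library was centred on its median peak, the median over all tested peaks moved from 0.35 to −0.11, and 10.3% of them were called higher and 11.9% lower. Of the peaks of these genes 3 were then called higher and 1 lower. The 3 were the 1 peak each of Cdk6, Arid4b and Ccnd2 that had passed the minimum score through Kmt5b sKO, and the 1 lower was the Arid4b peak at chr13:14156800-14159599. In Cdk6, 1 peak in place of 10 was then called higher and the median fold change went from 0.68 to 0.22. All 14 Cdk6 fold changes were still above 0, the lowest at 0.0099. When the variance of each peak was taken from its own libraries alone, 13 were called higher, 8 of them in Cdk6, 3 in Arid4b and 1 each in Rb1 and Ccnd3, beside 21.1% of all tested peaks.

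Other genes of the same pathways were described from 2 lists. Of 34 genes of the G1/S transition (cyclins, kinases, inhibitors, E2F and DP factors), 24 had a peak, and of their 41 tested peaks 4 were called higher and 1 lower, beside 32.9% and 0.883% of all tested peaks. The share called higher was 9.76%. Their median log2 fold change was 0.05 and their median length 3800 bp, beside a median length of 2400 bp over all tested peaks. Of all tested peaks of 3200 to 5800 bp, 12.8% were called higher, with a median log2 fold change of 0.19. The peak of Cdk4, the partner kinase of the D-type cyclins beside Cdk6, scored 338, 315 and 287 in Ctrl and 492, 478 and 525 in Kmt5b sKO (log2 fold change 0.67, adjusted p = 7.64e-05 in limma). It was apart between the genotypes, as were the Cdk6 peaks. The other peaks called higher were in Tfdp1 (0.99) and Tfdp2 (1.122), which encode the DP partners of E2F, and in E2f2 (0.70), of which another peak was called lower (−0.98). The Tfdp2 peak had passed the minimum score through Kmt5b sKO (means of 22.3 in Ctrl and 48.0 in Kmt5b sKO), and its libraries overlapped. That E2f2 peak scored 39, 78 and 48 in Ctrl and 22, 28 and 29 in Kmt5b sKO (adjusted p = 0.0142 in limma), and no peak of the list was called lower without Ctrl 2.

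Of 15 genes of the SIN3 complex, 10 had a peak, and of 27 tested peaks 5 were called higher (18.5%) and 0 lower, beside 32.9% and 0.883% of all tested peaks. At an unadjusted p below 0.05 in limma, 10 were higher and 0 lower. The median over the list was 0.35, that of all tested peaks. The 5 were 2 peaks of Brms1l, of which the stronger had a fold change of 0.85, and 1 peak each of Rbbp4 (1.08), Sap130 (1.03) and Arid4a (0.62). The Rbbp4 and Sap130 peaks and the second Brms1l peak had Ctrl means of 26.7, 26.3 and 26.0, passed the minimum score of 30 through Kmt5b sKO and could only differ upwards, and the Sap130 libraries overlapped. Arid4a, the paralog of Arid4b, scored 62, 48 and 53 in Ctrl and 97, 79 and 76 in Kmt5b sKO (adjusted p = 0.0251 in limma), without overlap. Rbbp4 encodes a histone-binding subunit that is also found in other complexes. Without sKO 1, 3 peaks of the list were called higher.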

How the data were processed

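DRIP-seq was done on MuSCs of 3 Ctrl and 3 Kmt5b sKO samples. The authors aligned the reads to mm10 (GRCm38) and, for the spike-in, to BDGP6, and called peaks against input with Epic2. The submitters' processing notes name FastQC 0.11.8, Trimmomatic 0.39, STAR 2.7.3a and Picard 2.21.7. Peaks of all samples were unified, and the score deposited by the authors is the signal of each union peak, scaled by the spike-in reads and rounded. The scores are not counts, so no count model was run. The table pairs no read number with a score, so no counting interval is given. The table also pairs each peak with a gene and a distance to its TSS. Groups were taken from the sample labels. The methods call the 3 samples biological replicates. The p-values set the difference between genotypes against a spread between libraries that was taken from a trend over all peaks. That spread is not the one of each peak's own libraries.

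Autosomal peaks with a mean score over 30 were tested with limma 3.58.1 in R 4.3.3 (lmFit, eBayes with a trend) on log2(score + 1), two-sided, with Benjamini-Hochberg adjustment over 25815 peaks. A call needed an adjusted p below 0.1 and a fold change over 1.5, the thresholds of the study. The log2 fold change understates changes of low peaks. The prior degrees of freedom were infinite, so a peak's variance came from the trend. Simulated data of 25815 peaks were drawn with the spread of that trend and without a shift between libraries. In them 200 peaks were given a log2 fold change of 1 or 1.5 either way. The fit called 184 of these and 16 unchanged ones. The simulation shares the variance assumption of the fit and changed far fewer peaks than were called in the data. It therefore does not measure how sound those calls are. Python 3.11.15 was used for the rest.

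The members and the gene lists were chosen with earlier results of these data known. Peaks were named by a rule. Every peak of a gene with at most 5 peaks was named, and for the others the peaks with the largest and smallest fold change, the smallest adjusted p, the greatest length and the shortest distance to the TSS. Alternatives were other pseudocounts, minimum scores, scalings, variance models and fold change minimums, a replicate block, X and Y peaks kept, another assignment of peaks to genes and each library left out. The variance of each peak alone and the fold change relative to the median were chosen after seeing the data. With the variance of each peak alone, p came from an ordinary t-test on the residual variance of the peak, without eBayes.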

Additional observations from a re-analysis of the deposited data

How the results depend on the processing

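Of the 33 tested peaks of the 6 genes, 17 were called higher and 0 lower, and the median log2 fold change was 0.67. Counts called higher were 3 with libraries centred on the median peak, 4 with quantile normalization, 10 with the same total per library, 5 after subtraction of the median fold change, 7 of 15 peaks with a minimum score of 100, and 4 with a fold change over 2. Counts called lower were 1 when centred and 1 with quantile normalization. The median log2 fold change was 0.21 when centred, 0.18 with quantile normalization, 0.47 with the same total and 0.32 after that subtraction. These alternatives rescale the libraries, test fewer peaks or raise the threshold. Leaving out 1 library gave 15 to 18 called higher, 0 lower and medians of 0.55 to 0.67. No other alternative moved the count called higher by over 1.5 times. Deviations of same-numbered samples correlated at −0.0094, 0.0108 and −0.0272. Of the Ctrl samples, only Ctrl 2 correlated best with its own number. These correlations gave no sign of pairing by replicate number, but they cannot exclude it. A fit with the replicate block gave 17 called higher and 0 lower, and changed no named call.

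Peaks of the G1/S list called higher (4) were 0 when centred, 0 with quantile normalization, 2 with the same total, 2 with a minimum score of 100, 1 with a fold change over 2 and 3 to 6 without 1 library. Those called lower (1) were 12 when centred, 6 with quantile normalization, 2 with the same total, 0 with a minimum score of 100, 0 with the variance of each peak alone, 5 with no fold change minimum, 0 with a fold change over 2 and 0 to 2 without 1 library. Peaks of the SIN3 list called higher (5) were 0 when centred, 0 with quantile normalization, 0 with a minimum score of 100, 3 with the same total, 2 with the variance of each peak alone, 9 with no fold change minimum, 2 with a fold change over 2 and 3 to 6 without 1 library. Those called lower (0) were 2 when centred, 1 with quantile normalization and 1 with the same total.

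The sign turned in 5 named peaks that were not called. The Rb1 peak at chr14:73244200-73246599 was at −0.11 when centred and −0.087 with quantile normalization. The Rb1 peak at chr14:73286600-73298399 was at 0.17 without Ctrl 2 and 0.090 without sKO 2 (−0.18 to 0.17 without 1 library), and the one at chr14:73299000-73317999 at 0.15 and 0.00015 (−0.15 to 0.15). The Arid4b peak at chr13:14183000-14196399 was at 0.072 without Ctrl 2 (−0.14 to 0.07 without 1 library), and the Ccnd3 peak at chr17:47594800-47604199 at −0.25 when centred. The causes were not tested. Precision rests on 3 libraries a genotype, and the table pairs no read number with a score.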

Other observations

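Genes whose summed score was most like that of each member over the 6 libraries were found among 7304 genes by Pearson correlation, as a description with no test. For Cdk6 they were Ampd3 (0.999), Gm43720 (0.999) and Alcam (0.998), and 724 of the 7304 genes were above 0.95. For Rb1 they were Dzip1l, Fam111a and Plagl2, with 52 genes above 0.95, and for Arid4b Lamc1, Tmbim6 and Knop1, with 206. The 6 values come from the same libraries and share their scale. Alcam, which encodes a cell adhesion molecule, scored 834.0 ± 55.2 over its peaks in the Ctrl libraries and 1983 ± 171 in those of Kmt5b sKO (SD, n = 3).

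The peaks next to Cdk6 were few. The nearest peak to its right, 6.59 kb away, had means of 16.0 in Ctrl and 15.7 in Kmt5b sKO and was under the minimum score. The next, 34.6 kb away in Fam133b, had means of 291 and 327 and was not called (log2 fold change 0.18, adjusted p = 0.363 in limma). To its left, 2 intergenic peaks 126 and 336 kb away were called higher, with means of 23.7 and 18.3 in Ctrl and 44.3 and 52.0 in Kmt5b sKO. Both passed the minimum score of 30 through Kmt5b sKO and could only differ upwards. A peak within the Rb1 gene that the table gives to Rcbtb2, chr14:73194600-73200599, scored 148, 239 and 166 in Ctrl and 186, 278 and 159 in Kmt5b sKO and was not called (log2 fold change 0.16, adjusted p = 0.471 in limma).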
